A study of Mus musculus with 4 samples.

Results

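The genes followed here are 43 interferon-stimulated genes, a set chosen by symbol. They were found as the non-control probes whose gene name was a member, and all 43 were on the array, with 76 of its 56605 probes, among 37074 gene names in all. NIH3T3 cells, an established mouse fibroblast line that the labels call mouse dermal fibroblasts, carried either a control siRNA (siControl, 2 arrays) or an siRNA against Timp1 (siTIMP1, 2 arrays). Both siRNAs were delivered with apatite nanoparticles, which the labels shorten to sCA, both groups stood in 2% fetal calf serum, and no genetic change is given for either. An untransfected sample and the time after transfection are not part of what was analysed here, so a response that both siRNAs raise alike cannot be seen as a difference. Nothing in the labels tells whether the arrays of a group came from separate cultures, and the p-values then cover no more than the spread from array to array, possibly a technical one.

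Type I interferons bind a receptor pair whose kinases activate a transcription factor complex that holds STAT2 and IRF9 and binds the interferon-stimulated response element (ISRE) in the promoters of antiviral genes. Interferon gamma works through a second element, the gamma-activated site (GAS). Cytosolic RNA sensors and toll-like receptors that recognise double-stranded RNA start interferon production, and siRNA can be sensed by some of them, which is why these genes are followed in siRNA experiments. Fibroblasts are a well-known source of interferon beta.

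Some promoters of the members hold the letters of the elements through which interferon acts. RefSeq promoter windows of GRCm38.p6, from 250 bases before to 50 bases after a start, were matched by symbol for 32 of the 43 members. The ISRE core searched was GAAA, any 2 bases and GAAA again, on both strands, and 16 of the 32 members held it (50%), beside 3.99% of the 27025 symbols in the table. The GAS letters searched were TTCNNNGAA, which read alike on both strands, and 8 of the 32 members held them, beside 9.55% of all symbols. Members with an ISRE core were Bst2, Ddx58, Eif2ak2, Gbp2, Gbp3, Ifih1, Ifit1, Ifit3, Igtp, Irgm1, Isg15, Oas1a, Oas1g, Oas3, Rsad2 and Stat2. The 4 sequences below belong to the members with the smallest p-values among those holding the core. They are written 5′ to 3′ on the strand of the gene, the capitals mark the ISRE core matches on either strand, and overlapping matches run together. The Ddx58 stretch is chr4:40239814-40240075 on the minus strand and ends with its match, just after the annotated start. Those of Gbp2 (chr3:142620413-142620662, plus strand), Isg15 (chr4:156200819-156201068, minus strand) and Irgm1 (chr11:48871421-48871670, minus strand) end at the base before the start.
Ddx58: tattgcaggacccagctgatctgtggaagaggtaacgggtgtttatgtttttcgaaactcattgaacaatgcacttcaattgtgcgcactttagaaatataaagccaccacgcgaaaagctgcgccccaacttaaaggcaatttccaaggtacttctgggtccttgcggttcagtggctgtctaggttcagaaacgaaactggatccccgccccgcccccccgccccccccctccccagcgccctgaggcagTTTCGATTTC
Gbp2: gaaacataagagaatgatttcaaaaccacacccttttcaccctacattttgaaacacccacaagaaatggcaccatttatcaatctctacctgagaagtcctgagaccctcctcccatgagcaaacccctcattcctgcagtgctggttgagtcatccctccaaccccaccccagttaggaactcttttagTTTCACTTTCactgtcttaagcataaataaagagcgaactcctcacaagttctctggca
Isg15: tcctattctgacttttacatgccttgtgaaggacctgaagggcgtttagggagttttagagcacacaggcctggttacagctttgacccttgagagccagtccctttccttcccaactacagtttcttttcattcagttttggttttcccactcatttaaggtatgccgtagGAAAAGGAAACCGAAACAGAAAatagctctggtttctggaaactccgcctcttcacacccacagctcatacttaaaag
Irgm1: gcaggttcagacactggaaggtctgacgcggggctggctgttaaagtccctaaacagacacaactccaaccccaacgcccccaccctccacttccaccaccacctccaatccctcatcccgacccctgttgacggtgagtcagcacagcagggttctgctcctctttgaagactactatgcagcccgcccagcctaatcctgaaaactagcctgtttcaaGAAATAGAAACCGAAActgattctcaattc

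A match describes these letters in this window and is not a measured binding site. Isg15 held 3 overlapping matches and Irgm1 held 2, while Ddx58 and Gbp2 held 1 each. In siControl, 8 of the 16 members with it and 10 of the 16 without it were well above background. The median log2 difference between siTIMP1 and siControl was -0.07 over the tested members with the core and 0.13 over those without, and no test was made between them.

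The arrays as a whole set the limits of what follows. Timp1, the target of the siRNA and an inhibitor of matrix metalloproteinases, gave processed signals of 53297 and 67559 in siControl and 1840 and 1492 in siTIMP1. The fall was -5.22 in log2 units (SE 0.158, n = 2 and 2) with a limma adjusted p of 0.0105. All 10 fibroblast markers listed for the check were well above background in siControl, with a summed signal of 363364 to 394210 there and 399626 to 400631 in siTIMP1. S100a4 and Col1a2 were the brightest in that sum. Pdgfra read 1054 and 898 in siControl and 587 and 506 in siTIMP1, lower without overlap (-0.88, limma adjusted p = 0.0618). Col3a1 and Ddr2 were higher without overlap, by 0.40 and 0.31 (limma adjusted p = 0.367 and 0.410). The other fibroblast markers overlapped between the groups. Of 10 macrophage and leukocyte markers 6 were also well above background in siControl, and their summed signal ran from 3772 to 3814 in siControl and from 3223 to 3421 in siTIMP1. Lyz2, Adgre1 and Fcgr1, which define macrophages and other myeloid cells, were not above background on any array, while Itgam and Csf1r, also myeloid, were on every array. Itgam read 2053 and 2056 in siControl and 1711 and 1681 in siTIMP1, and Csf1r read 432 and 434 against 375 and 355, both lower without overlap (limma adjusted p = 0.114 and 0.189). Cd14 and Cd3e were also lower without overlap (limma adjusted p = 0.395 and 0.261). Cd68 and Ptprc overlapped between the groups, with differences of 0.09 and 0.01 in log2 units. Of 5 endothelial markers 0 were above background on both siControl arrays, and of 6 epithelial and keratinocyte markers 2 were. Of 5 plasmacytoid dendritic cell markers 3 met this, Siglech, Tcf4 and the member Bst2. Siglech was the brightest of them, at 16397 and 17880 in siControl and 19004 and 14824 in siTIMP1. The summed signals of the endothelial, epithelial and plasmacytoid dendritic cell lists overlapped between the groups. The part of any of these in the values below was not tested. All 4 arrays lay on 1 slide, with siControl at the first positions and siTIMP1 at the following ones, so position and group cannot be told apart. The share of spots well above background ran from 50.4% to 52.1% on 3 arrays and was 45.9% on siTIMP1 replicate 2.

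At baseline the members split into a measurable and an undetected portion. In siControl 23 of the 43 members (53.5%) had a probe well above background on both arrays, beside 47.4% of all gene names. In siTIMP1 the number was 21, and 20 members were well above background on all 4 arrays. At the other end, 14 members had no probe above background on any array: Oas1a, Oas1g, Oas2, Oas3 and Oasl2 (synthesis of 2-5A, which turns on RNase L, or its relatives), Mx1, Gbp3 and Iigp1 (dynamin-like and immunity-related GTPases), Rsad2 (viperin), Cmpk2, Ifi44, Usp18 (the ISG15 protease), Ifih1 (the RNA sensor MDA5) and Psmb8 (an immunoproteasome subunit). Their brightest probes read between 1.43 and 8.41. The lowest signal counted as well above background was 7.10 to 7.97 on 3 arrays and 13.1 on siTIMP1 replicate 2, so that array had the least room for dim members. In bulk RNA, fewer cells expressing a gene and less RNA per cell cannot be told apart.

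Neighbouring members were compared by whether they were well above background on both siControl arrays. They formed 8 clusters with gaps of at most 200 kb on mm9, the build of the probe coordinates. The 4 Oas members on chromosome 5 (121180343 to 121346794) and Oasl1 and Oasl2 (115362168 to 115387920) had 0 of 6 above background on both siControl arrays. Cmpk2 with Rsad2 on chromosome 12, and Mx1 with Mx2 on chromosome 16, had none that met this either, while Oasl1 and Mx2 were above background on 1 siControl array each. Both Parp9 and Parp14 on chromosome 16 met it. The other 3 clusters were mixed, with Psmb9 and Tap1 but not Psmb8 on chromosome 17, and Gbp2 but not Gbp3 on chromosome 3. Of Ifit1, Ifit2 and Ifit3 on chromosome 19 only Ifit2 was well above background in both siControl arrays. Oas1b and Oas1c, which are not members, also lie between the Oas members on chromosome 5. Oas1b read 3223 and 3123 in siControl and 3226 and 3408 in siTIMP1, well above background on every array. Oas1c read 3.37 and 3.06 in siControl and 3.48 and 5.80 in siTIMP1.

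**Figure D1:**
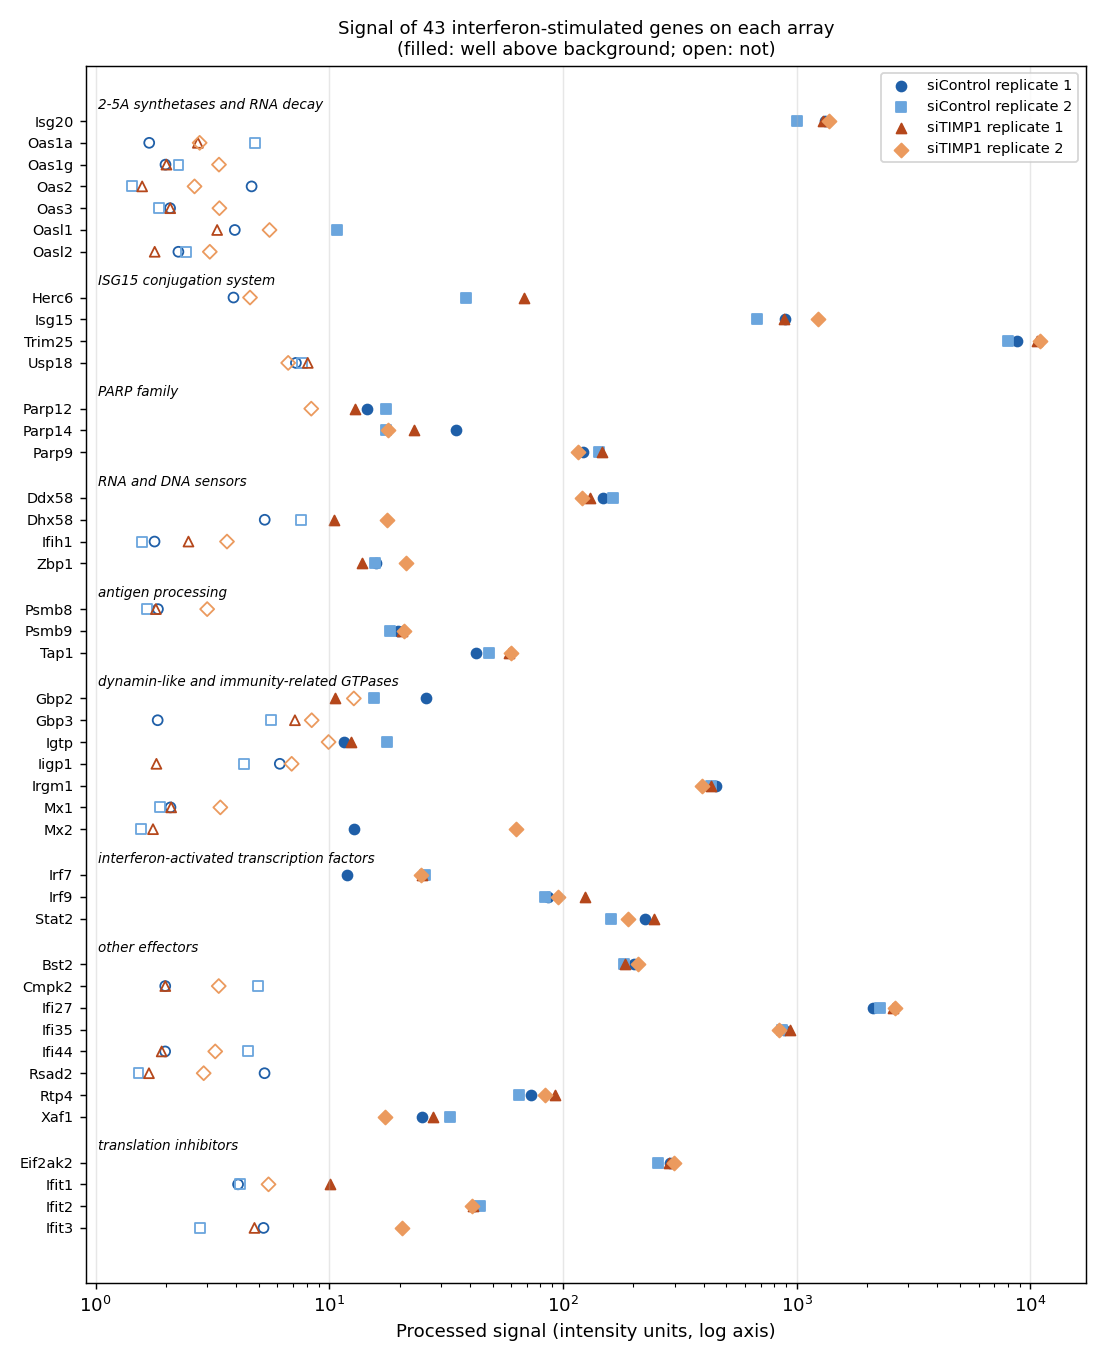
Processed signal on a log axis for the probe of each of the 43 members, 1 point per array, by role and with siControl and siTIMP1 in different colours. Most points of the 24 tested members lie close together within a gene, and those of the never-detected members lie under 8.41.

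Whether the 2 siRNAs differed in the interferon response was asked with limma over all probes. No member was called higher and none lower in siTIMP1, of 24 tested (limma, Benjamini-Hochberg adjusted p under 0.05), beside 0.085% of the 17646 tested genes called higher and 0.703% called lower, or 0.788% in either direction. Before adjustment, limma gave p under 0.05 to 2 members with a higher mean (Trim25 and Ifi27) and 1 with a lower mean (Ddx58), beside 11.9% and 7.99% of all genes. That is 12.5% of the members beside 19.8% of all genes. Limma with robust moderation also called 0 members, beside 0.295% of all genes higher and 1.03% lower, and without the variance trend it called 0 genes of any kind, Timp1 included. The groups did not overlap for 12 members, 7 with siTIMP1 above and 5 with it below, beside 31.1% and 22.9% of all genes, or 50% beside 54.1% in either direction. All of these shares are near or under those over all genes. The median difference of the tested members was 0.07 on the log2 scale, beside 0.02 for all tested genes, with 13 members positive and 11 negative. Single members ranged from -0.83 to 1.05, and for 17 of the 24 the 95% interval lay within 1 log2 unit of no change on both sides. A p that misses the threshold does not show that the groups were alike, and with 2 arrays against 2 an exact permutation test could not go below p = 0.333.

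**Figure D2:**
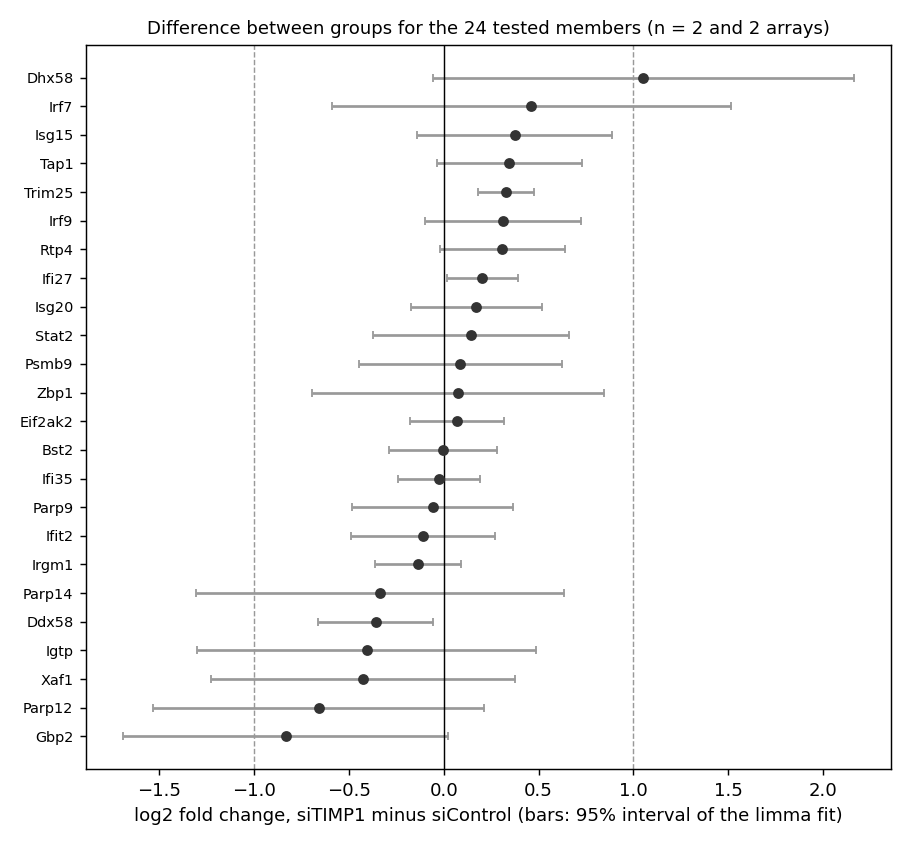
Difference in log2 signal, siTIMP1 minus siControl, for the 24 tested members, with 95% intervals of the limma fit. Points run from -0.83 for Gbp2 to 1.05 for Dhx58, the wide intervals belong to dim probes, and the dashed lines mark a change of 1 log2 unit.

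Among the sensors of foreign nucleic acid, Ddx58 was lower and Dhx58 higher in siTIMP1 by their means, and none passed the test. Ddx58 encodes RIG-I, which recognises RNA with a 5′ triphosphate or short blunt double-stranded ends. Its signals were 148 and 164 in siControl and 130 and 121 in siTIMP1. Both siTIMP1 arrays lay under both siControl arrays, with a difference of -0.36 (SE 0.118, 95% interval -0.66 to -0.06, limma adjusted p = 0.221). A second tested Ddx58 probe read 33.2 and 35.8 in siControl and 16.6 and 23.2 in siTIMP1, a difference of -0.86 (limma adjusted p = 0.183). Those 2 probes lie at chr4:40151893-40151952 and chr4:40156918-40156977 of mm9, and the other 2 Ddx58 probes were not tested. Dhx58 encodes LGP2, a relative of RIG-I without signalling domains that modulates it. Its signals were 5.29 and 7.57 in siControl, where it was not well above background, and 10.4 and 17.6 in siTIMP1. It entered the test only through siTIMP1, so that its lack of overlap between groups is tied to that filter. With each siControl array set at the higher of its lowest signal well above background and the probe's own, siTIMP1 stood 1.71-fold higher. That ratio is tied to the same filter and is not a lower limit, since the 95% interval below includes no change. The fitted difference of 1.05 (SE 0.434, 95% interval -0.06 to 2.16, limma adjusted p = 0.289) did not pass, and it was 0.14 under normexp background correction, which adds an offset of 50 to every signal and so shrinks differences of dim probes. A second Dhx58 probe was at background on every array and was not tested. It read 1.59 and 1.47 in siControl and 1.61 and 2.66 in siTIMP1. Zbp1, a sensor of Z-form nucleic acid that can start necroptosis, read 15.8 and 15.7 in siControl and 13.8 and 21.2 in siTIMP1, which overlap. The fourth sensor, Ifih1, stayed at background.

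The transcription factors that interferon switches on were all measurable. Irf9, the DNA-binding partner of STAT2, read 86.5 and 83.7 in siControl and 124 and 95.5 in siTIMP1. Its siTIMP1 arrays lay above, the upper one well apart from the lower, with a difference of 0.31 (SE 0.160, 95% interval -0.10 to 0.72, limma adjusted p = 0.363), and a second probe gave 0.14. Stat2 read 223 and 160 in siControl and 245 and 190 in siTIMP1, a spread within groups wider than the difference of 0.15 between them. Irf7, which amplifies interferon alpha production, read 11.9 and 25.6 in siControl and 24.9 and 24.7 in siTIMP1. The low siControl array decides its sign: the difference was 0.46 with it and -0.11 without it.

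Of the 7 members grouped as 2-5A synthetases, their relatives or enzymes that degrade RNA, Isg20 alone was tested. It encodes an exonuclease that degrades single-stranded RNA, and its signals were 1319 and 1001 in siControl and 1295 and 1377 in siTIMP1. The groups overlapped, with a difference of 0.17 (limma adjusted p = 0.522), while a second probe read 311 and 276 in siControl and 381 and 364 in siTIMP1 without overlap (0.30, limma adjusted p = 0.211). Oasl1 was above background on 1 array only, with signals of 3.94 and 10.8 in siControl and 3.31 and 5.55 in siTIMP1. The other 5 were not detected on any array.

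The members that block translation did not differ beyond the spread. Eif2ak2 encodes PKR, the kinase that double-stranded RNA activates to phosphorylate eIF2 alpha, and it read 286 and 254 in siControl and 285 and 298 in siTIMP1. The values overlap, with a difference of 0.07 (SE 0.0970, 95% interval -0.18 to 0.32). Ifit2, an RNA-binding protein that hampers translation of viral RNA, read 41.5 and 44.1 in siControl and 41.0 and 40.8 in siTIMP1, just below without overlap. Ifit1, which binds RNA lacking a methylated cap, read 4.07 and 4.13 in siControl and 10.03 and 5.49 in siTIMP1. Ifit3, its partner, read 5.23 and 2.79 in siControl and 4.78 and 20.6 in siTIMP1. Both were above background on single arrays only and were not tested.

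The ISG15 conjugation system held the member with the smallest p. Trim25, a ubiquitin and ISG15 ligase that ubiquitinates RIG-I, read 8774 and 7998 in siControl and 10702 and 10990 in siTIMP1. Both siTIMP1 arrays were above both siControl arrays by more than the arrays of a group differed. The difference was 0.33 (SE 0.0575, 95% interval 0.18 to 0.47, limma adjusted p = 0.101), so it did not pass. Without siControl replicate 1 it passed, at 0.38 with a limma adjusted p of 0.0311, and then 2.32% of all genes were called higher. Other Trim25 probes gave less: one read 2894 and 3072 in siControl and 3313 and 3098 in siTIMP1 (0.06), and a dim one gave 0.01. The bright probe spans chr11:88874956-88881181 of mm9. Isg15, the ubiquitin-like modifier itself, read 894 and 678 in siControl and 883 and 1228 in siTIMP1. The groups overlapped, since siControl replicate 1 stood above siTIMP1 replicate 1, and the difference was 0.37 (SE 0.201, 95% interval -0.14 to 0.89, limma adjusted p = 0.377). Herc6, the main ISG15 ligase of the mouse, went up and down within both groups, at 3.89 and 38.3 in siControl and 68.2 and 4.58 in siTIMP1. It was not tested, and Usp18 was at background.

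The dynamin-like and immunity-related GTPases were dim except for Irgm1. Gbp2, a guanylate-binding protein that acts on pathogen-containing vacuoles, read 25.9 and 15.6 in siControl and 10.6 and 12.7 in siTIMP1. Its siTIMP1 arrays lay below, and 1 of them was not well above background. Gbp2 was tested through siControl alone, where it was higher, so this lack of overlap is tied to the filter on dim probes. The difference of -0.83 (SE 0.335, 95% interval -1.69 to 0.02, limma adjusted p = 0.280) was -0.21 under normexp background correction. Igtp, also known as Irgm3, read 11.55 and 17.6 in siControl and 12.4 and 9.93 in siTIMP1, and the groups overlapped. Irgm1, which regulates the other immunity-related GTPases, read 450 and 429 in siControl and 431 and 395 in siTIMP1, a difference of -0.13 (limma adjusted p = 0.453). Its centred log2 values were 1.27 and 1.24 in siControl and 1.18 and 1.06 in siTIMP1, below without overlap. Further Irgm1 probes gave -0.25 and 0.09. Mx2, a dynamin-like GTPase, was scattered without regard to group, at 12.8 and 1.57 in siControl and 1.76 and 62.8 in siTIMP1.

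Antigen processing members are induced above all by interferon gamma. Tap1, a subunit of the peptide transporter that loads MHC class I, read 42.6 and 48.3 in siControl and 58.8 and 60.2 in siTIMP1. Both siTIMP1 arrays were higher, with a difference of 0.35 (SE 0.149, 95% interval -0.03 to 0.73, limma adjusted p = 0.302). A second Tap1 probe, too dim to test, ran lower in siTIMP1, at 9.53 and 14.3 in siControl and 3.62 and 7.42 in siTIMP1. Psmb9, an immunoproteasome subunit, read 19.7 and 18.1 in siControl and 20.6 and 20.9 in siTIMP1, just above without overlap and by 0.09 (limma adjusted p = 0.841).

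The 3 PARP members, which are ADP-ribosyltransferases or their relatives, had negative differences, and none passed. Parp12, found at stress granules and membranes, read 14.5 and 17.4 in siControl and 12.9 and 8.37 in siTIMP1. The siTIMP1 arrays lay below, 1 of them not well above background, at a difference of -0.66 (SE 0.341, 95% interval -1.53 to 0.21, limma adjusted p = 0.364). Parp12 was tested through siControl alone, where it was higher, so its lack of overlap is tied to the filter on dim probes. Parp14 read 34.9 and 17.5 in siControl and 23.0 and 17.8 in siTIMP1. Its difference of -0.33 rests on siControl replicate 1 and was 0.15 without it. Parp9, which acts with the ubiquitin ligase DTX3L, read 122 and 142 in siControl and 146 and 116 in siTIMP1 and overlapped.

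Among the 8 other effectors 5 were tested, with differences from -0.42 to 0.31 and none called. Ifi27, a small membrane protein, read 2116 and 2278 in siControl and 2591 and 2628 in siTIMP1. Both siTIMP1 arrays were higher, by 0.20 (SE 0.0732, 95% interval 0.02 to 0.39, limma adjusted p = 0.246). Rtp4, a chaperone of G protein-coupled receptors, read 72.6 and 65.0 in siControl and 92.0 and 83.8 in siTIMP1. That was also without overlap, by 0.31 (SE 0.128, 95% interval -0.02 to 0.64, limma adjusted p = 0.291). Bst2, or tetherin, which holds budding virions at the cell surface, read 200 and 182 in siControl and 185 and 209 in siTIMP1, and no difference showed. Ifi35, a partner of NMI, read 881 and 868 in siControl and 937 and 840 in siTIMP1. Xaf1, a pro-apoptotic antagonist of XIAP, read 24.9 and 32.9 in siControl and 27.8 and 17.4 in siTIMP1, a difference of -0.42 (limma adjusted p = 0.497). The last 2 overlapped between groups as well, and Rsad2, Cmpk2 and Ifi44 were at background.

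The differences between groups were then set against those between arrays of 1 group. The difference between groups exceeded the larger of the differences between arrays of a group for 9 of the 24 members: Ddx58, Dhx58, Gbp2, Ifi27, Irgm1, Parp12, Rtp4, Tap1 and Trim25. For the other 15 it did not. Beside 40.5% of all tested genes that met this, the 9 members are no larger a share. Gbp2, Parp12 and Dhx58 were tested through 1 group alone, the one in which each was higher, so their place among the 9 is tied to the filter on dim probes. Both kinds of difference were larger at the median for the members than for all tested genes, and this was not tested. Their median absolute difference was 0.31 between groups, 0.20 between the siControl arrays and 0.17 between the siTIMP1 arrays, beside 0.17, 0.14 and 0.11 over all tested genes.

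**Figure D3:**
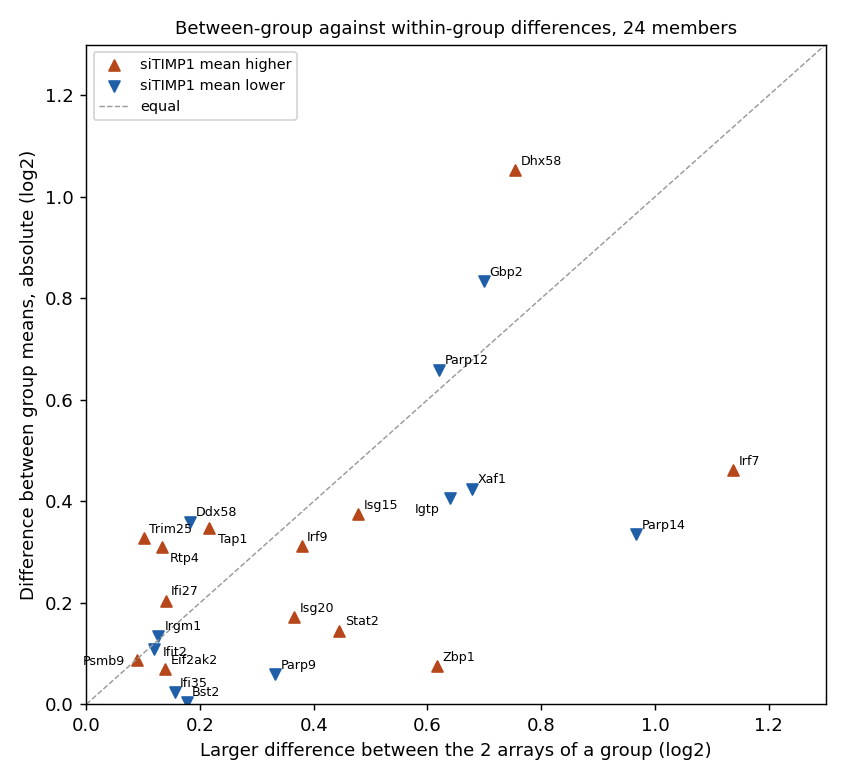
Absolute difference between group means against the larger difference between the 2 arrays of a group, both in log2 units, for the 24 tested members. Triangles pointing up have a higher siTIMP1 mean, and 9 members lie above the line of equal values.

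The rest of the pathway was followed in 4 lists that hold 92 genes on the array, of which 69 were tested. One, Jak1, was called lower in siTIMP1 and none higher, beside 0.703% and 0.085% of all tested genes. Of the ligands, 5 of 17 interferon genes had a probe well above background on both siControl arrays and 10 had none on any array. Ifnb1, the main interferon of fibroblasts, was among the latter, at 1.56 and 1.44 in siControl and 2.62 and 2.63 in siTIMP1. Ifna1 read 12.8 and 15.4 in siControl and 11.1 and 9.02 in siTIMP1, below without overlap (limma adjusted p = 0.404). It was tested through siControl alone, where it was higher, so this lack of overlap is tied to the filter on dim probes. Interferon alpha genes are near-identical, so the probe may read several. Of the receptors, Ifnar1, a chain of the type I receptor, read 253 and 441 in siControl and 272 and 219 in siTIMP1 and overlapped. Its partner Ifnar2 differed by 0.09 and the gamma receptor chain Ifngr1 by 0.08.

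Jak1 encodes the kinase that the type I and the gamma receptor share. It read 1708 and 1773 in siControl and 954 and 934 in siTIMP1, with every siTIMP1 array lower. Its level in siTIMP1 was 0.526 of that in siControl, a fall of -0.93 in log2 units (95% interval -1.11 to -0.75, SE 0.0707) at a limma adjusted p of 0.0249. The value comes from 1 probe at chr4:100825094-100825153 of mm9. It lost its call with siTIMP1 replicate 1 left out (limma adjusted p = 0.174) or replicate 2 left out (0.214), and without the variance trend (0.134). Jak1 was called in 11 of 14 settings, with differences between -0.97 and -0.85.

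Other genes of interferon signalling did not pass. Of the 15 tested, Jak1 included, 9 had both siTIMP1 arrays below both siControl arrays, beside 22.9% of all genes. Both lay above for 3, beside 31.1% of all genes, and the median difference was -0.17. The 9 were Jak1, Tyk2, Irf1, Ptpn2, Ptpn6, Ptpn11, Pias1, Socs1 and Socs3, and Ptpn6 was tested through siControl alone. Since the list mixes kinases, STATs and IRFs with inhibitors such as Socs1 and Socs3, its median gives no direction of signalling. Ptpn2, a phosphatase of JAK1, differed by -0.41 (limma adjusted p = 0.108). Irf1, an activator of interferon-stimulated genes, differed by -0.36 (limma adjusted p = 0.134), and Irf2, which opposes it, by 0.49 (limma adjusted p = 0.154). Tyk2, the kinase at the IFNAR1 chain, differed by -0.41 (limma adjusted p = 0.260).

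The sensing list, of which 19 genes were tested, had 0 calls, and before adjustment limma gave p under 0.05 to 3 with a higher and 1 with a lower mean, beside 11.9% and 7.99% of all genes. Trim56, a ligase of the STING pathway, differed by -0.33 (limma adjusted p = 0.153), and Tarbp2, a double-stranded RNA-binding partner of Dicer, by 0.27 (limma adjusted p = 0.153). Ticam1, the TRIF adaptor of toll-like receptor 3, differed by 0.29 and Traf3, downstream of it, by 0.30. Toll-like receptors 3 and 8 and their chaperone Unc93b1 were at background on every array.

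A last list of further interferon-induced genes also had 0 calls among 27 tested, and before adjustment limma gave p under 0.05 to 3 with a higher and 3 with a lower mean, beside the same shares of all genes. Ifi30, a lysosomal thiol reductase of antigen processing, read 792 and 679 in siControl and 1087 and 1125 in siTIMP1, which is 0.55 higher without overlap (limma adjusted p = 0.0944). The other genes with small p pointed both ways, Tap2 at -0.31, H2-K1 at 0.24 and Slfn5 at -0.37. Cxcl10, a chemokine induced strongly by interferon gamma, read 16.8 and 22.1 in siControl and 21.3 and 16.8 in siTIMP1. Ccl5, another chemokine of the antiviral response, read 256 and 352 in siControl and 260 and 550 in siTIMP1. Both overlapped between groups.

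**Figure D4:**
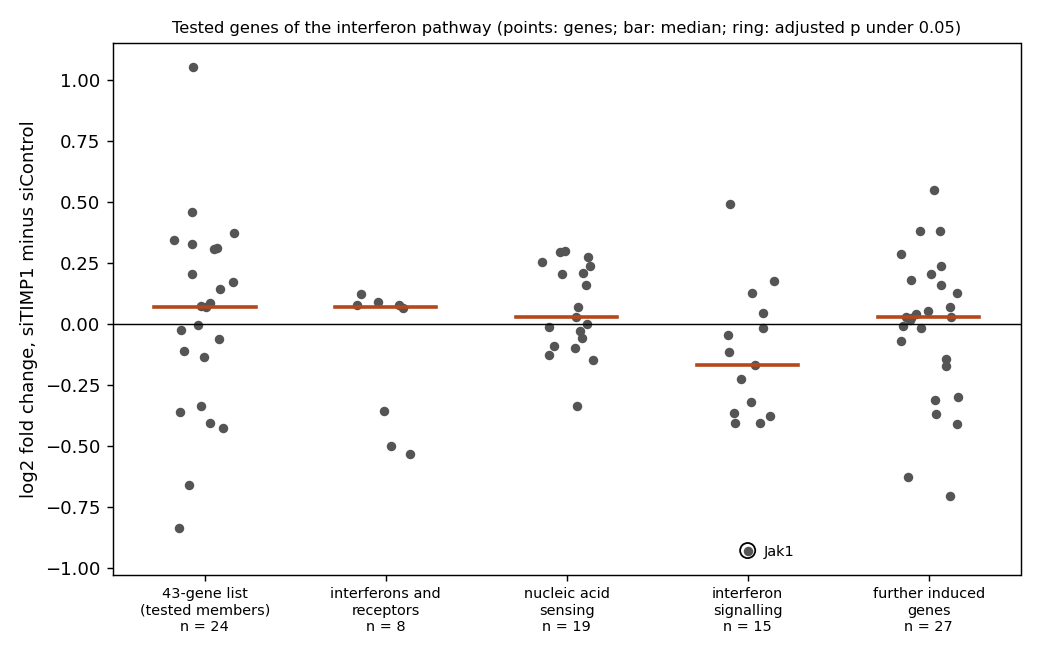
Difference in log2 signal, siTIMP1 minus siControl, for the tested members and for the tested genes of the 4 pathway lists, 1 point per gene, with the median of each list as a bar. Medians lie between -0.17 and 0.07, and the ringed point is Jak1 at -0.93.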

How the data were processed

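Total RNA of 4 samples was hybridised with Cy3 to 1-colour arrays with probes of 60 bases. The deposited spot intensity is scanner output, background-subtracted and detrended by Agilent Feature Extraction (version 11.5.1.1, as the submitters' processing notes and the file headers give it), without scaling across arrays. A log2 table from the authors was also deposited, whose values equal the log2 processed signal minus a constant per array (6.90 to 6.96, Pearson r 0.999999 across probes), with column medians from -3.99 to -3.86. Its scale and direction were thereby known. Group came from each sample's title, and replicate numbers follow the order of deposition.

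The processed signal was taken to log2 and centred on its 75th percentile in each array. Control spots and 136 to 250 outlier spots per array were dropped, and spots of a probe were averaged. Testing was kept to the 26014 probes with values on 4 of 4 arrays that stood well above background throughout at least 1 group. limma 3.58.1 in R 4.3.3 (lmFit, eBayes with a trend) compared siTIMP1 with siControl, calling adjusted p-values (Benjamini-Hochberg, across those probes) under 0.05. A gene is represented by its tested probe of highest mean. The number of arrays limits precision. Roles, pathway lists and markers were written by symbol. Members and lists were chosen with earlier results of these data known. Full statistics are given for the 10 members of smallest p, signals for every tested member, and counts or ranges for the rest, and per pathway list the called genes and up to 4 of smallest p. Alternatives were normexp and quantile normalization, a percentile over detected probes, no filter, a stricter filter, moderation without trend or robust, averaging over the probes of a gene, keeping outlier spots, the authors' table and each array left out.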

Additional observations from a re-analysis of the deposited data

How the results depend on the processing

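No paired analysis was possible because the replicate numbers come from the order of deposition and pair no samples. Of 332 values of members under the alternatives, 331 gave the call reported, 1 (Trim25 without siControl replicate 1) passed the threshold, and 16 of the 24 members kept their sign throughout. Many of these values could not have moved. Settings in which no gene at all was called, given below, could not have called a member. Both changes of filter, both changes of moderation and keeping outlier spots left the tested members' differences as they were, so no sign could change there. The count of members called higher went from 0 to 2 at an unadjusted p under 0.05 and that called lower from 0 to 1. With each array left out in turn, the count higher ran from 0 to 1 and the count lower stayed at 0. The members' median of 0.07 ranged from -0.01 to 0.10. Calls in the pathway lists went from 1 to 2 with no filter (Ifi30 and Jak1), to 0 with no variance trend, to 15 at an unadjusted p under 0.05, and ran from 0 to 4 with each array left out. The 4 without siControl replicate 1 were Ifi30, Ifnar1, Jak1 and Socs1. Timp1, at -5.22, lost its call without the trend (-5.22, limma adjusted p = 0.134), and without either siTIMP1 array (limma adjusted p = 0.137 and 0.184), over a range of -5.41 to -5.04. Over all genes, limma called 0 higher and 0 lower in those same 3 settings, against 15 and 124, but 410 and 647 without siControl replicate 1, 94 and 210 without siControl replicate 2, 107 and 258 with no filter, and 52 and 182 with robust moderation. The cause was not tested. For dim members the signal over background limits what can be read. With 1 array left out, the lone array is assumed to vary like the other group.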
